A study of Homo sapiens with 9 samples.

Results

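The 4 fibroblast growth factor receptor genes FGFR1, FGFR2, FGFR3 and FGFR4 and the ligand gene FGF18 were described across 9 single-colour arrays of human colon carcinoma-derived epithelial cell lines. Members were all probe sets whose RefSeq identifier maps to one of these genes. There were 5, 1 for each gene, among 1259 probe sets on the array and 1043 with a single gene symbol. The other 216 could not be named from the table used, so a further probe set of these genes among them would not have been counted. An unnamed probe set may belong to FGFR1, which could not be checked here. The genes were chosen on their signals in these same arrays, in all 3 comparisons between groups, above all the low FGFR3 signal after interferon gamma and the high FGFR2 signal in Caco-2. Their levels and differences are therefore given as a description, without p-values. The 3 groups, each of 3 arrays, were T84 cells given 100 U/ml interferon gamma for 24 hours, T84 cells left untreated and Caco-2 cells left untreated. Untreated T84 cells were at passage 68 and Caco-2 cells at passage 37, both at 90% confluence in 6-well plates, so the difference between the lines cannot be told apart from that of passage. The passage and confluence of the treated T84 cells are not given here by any label. Each line is a tumour line grown alone, without the stroma that supplies many of the FGF ligands in gut tissue. The series asked which glycosylation genes could take part in the interferon-linked rise of a sialylated CD44 variant in T84, with Caco-2 as a line without that epitope. The replicates are numbered but not said to come from separate cultures, so the errors and p-values cover only the spread among these arrays, part or all of which may be technical.

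Fibroblast growth factors are secreted or locally held ligands that bind receptor tyrosine kinases together with heparan sulfate, a sulfated sugar chain that steadies the complex of ligand and receptor. Dimerised receptors phosphorylate each other and signal mainly through the RAS to MAP kinase cascade. In epithelia FGFR2 is best known as the receptor for ligands made by the underlying mesenchyme, FGFR3 for its part in intestinal crypts and in growing cartilage, and FGFR4 for the hepatic response to the gut hormone FGF19. FGFR1 is used mostly by mesenchymal cells. FGF18 is a ligand that activates FGFR3 among other receptors, and colorectal tumours are known to express it.

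Promoter sequences are shown for FGFR3, FGFR4 and FGF18, the members with lower signals after interferon gamma, and for FGFR2, the member with the widest gap between the lines. Each sequence is the 250 bases before the annotated start, 5′ to 3′ on the gene's strand, from RefSeq on build GRCh38.p14. Where RefSeq lists several starts for a gene, that nearest to the gene's outer end was taken. Capitals mark GC boxes, the letters GGGCGG or their reverse complement CCGCCC, which transcription factors of the Sp family are known to bind.
FGFR3 promoter, chr4:1793043-1793292, plus strand: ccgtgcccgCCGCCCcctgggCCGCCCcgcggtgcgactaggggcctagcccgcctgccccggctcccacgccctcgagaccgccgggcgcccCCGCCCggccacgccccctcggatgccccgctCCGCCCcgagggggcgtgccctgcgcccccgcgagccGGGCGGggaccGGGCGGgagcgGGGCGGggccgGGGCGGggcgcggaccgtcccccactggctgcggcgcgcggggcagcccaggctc
FGFR4 promoter, chr5:177086665-177086914, plus strand: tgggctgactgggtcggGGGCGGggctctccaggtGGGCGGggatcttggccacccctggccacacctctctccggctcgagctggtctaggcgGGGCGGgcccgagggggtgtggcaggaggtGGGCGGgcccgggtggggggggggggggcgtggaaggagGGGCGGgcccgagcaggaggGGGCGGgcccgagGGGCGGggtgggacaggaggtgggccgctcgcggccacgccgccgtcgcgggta
FGF18 promoter, chr5:171419397-171419646, plus strand: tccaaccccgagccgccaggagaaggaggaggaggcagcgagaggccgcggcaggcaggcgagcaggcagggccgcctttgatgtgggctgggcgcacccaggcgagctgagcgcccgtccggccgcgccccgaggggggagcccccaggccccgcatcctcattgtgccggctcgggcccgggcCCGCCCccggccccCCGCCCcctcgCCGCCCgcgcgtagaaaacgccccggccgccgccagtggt
FGFR2 promoter, chr10:121598445-121598694, minus strand: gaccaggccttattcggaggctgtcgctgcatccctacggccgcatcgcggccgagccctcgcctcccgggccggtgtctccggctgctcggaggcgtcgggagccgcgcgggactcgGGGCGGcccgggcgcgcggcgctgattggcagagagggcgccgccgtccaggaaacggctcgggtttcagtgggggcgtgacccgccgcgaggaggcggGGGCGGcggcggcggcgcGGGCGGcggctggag
All of these windows are rich in G and C, from 78.4% in FGFR2 to 86.8% in FGFR3, where the median of 35114 promoters was 58.0%. FGFR3 held 8 GC boxes, FGFR4 7, and FGF18 and FGFR2 3 each, and 42.6% of all promoters held at least 1. Neither the STAT core letters TTCNNNGAA nor the interferon regulatory factor letters GAAANNGAA, searched on both strands, occurred in these windows. Those letters occurred in 6.6% and 6.9% of all promoters, and the 2 searches can overlap. The box letters TATAAA, held by 10.7% of all promoters, did not occur either. A match is a description of letters, and a window of this length says nothing about sites outside it.

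Array medians lay between 6.7 and 6.8 log2 units, and correlations within groups, across probe sets that are not independent replicates, between 0.987 and 0.999. The treatment label was borne out by its marker genes: all 6 measured interferon gamma response genes were higher in treated T84, from 3.17 log2 units for ICAM1 to 6.12 for CXCL9. Only 3 of 15 listed intestinal epithelial markers were on the array under a named probe set. LGALS4 and MUC13 lay at 13.01 and 11.98 in untreated T84 and at 6.91 and 9.92 in Caco-2, and MUC2 at 7.03 and 6.63. In treated T84 they lay at 12.47, 12.38 and 7.20. Treated replicate 3, untreated T84 replicate 3 and Caco-2 replicate 1 deviated from their groups together, with correlations of deviations of 0.561, 0.756 and 0.484 between pairs of them.

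Interferon gamma left the receptor genes at unlike levels in T84. FGFR3, FGFR4 and the ligand gene FGF18 were lower in treated than in untreated cells, whereas FGFR1 and FGFR2 differed by at most 0.14 log2 units. FGFR3 was 2.36-fold lower (95% interval 1.98 to 2.82), FGF18 1.71-fold lower (1.46 to 2.00) and FGFR4 1.36-fold lower (1.17 to 1.59).

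FGFR3 had log2 signals of 7.81, 7.65 and 7.62 in treated replicates 1, 2 and 3 and of 8.80, 9.0 and 9.0 in the untreated ones. Untreated replicates 2 and 3 shared the value 8.9985. The source of this tie and its effect on the SE were not tested. The groups were 0.99 log2 units apart at their closest arrays, and the difference of means was -1.24 ± 0.11 log2 units (SE, n = 3 per group). It was the lowest of all 1259 differences. FGFR3 is a receptor of FGF18, whose own log2 signals were 6.25, 6.19 and 6.21 in treated and 6.95, 7.20 and 6.83 in untreated T84. The FGF18 groups were 0.57 apart at their closest, with a difference of -0.77 ± 0.10 that ranked as number 14 from the lowest. Untreated T84 replicate 2 held the highest FGF18 value, and the treated arrays lay within 0.06 log2 units of each other by range.

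FGFR4, the receptor through which FGF19 acts on liver cells, gave 9.28, 9.32 and 9.18 in treated and 9.68, 9.68 and 9.76 in untreated T84. Its groups did not overlap either, and the difference was -0.45 ± 0.10 log2 units, number 46 from the lowest. FGFR4 no longer passed the threshold of the fit when any 1 of the 6 T84 arrays was left out, with differences from -0.48 to -0.41. FGFR2 gave 5.48, 5.34 and 5.39 in treated and 5.60, 5.57 and 5.48 in untreated T84. The FGFR2 groups met at 5.48, with a difference of -0.14 ± 0.06 and an interval, not adjusted for the number of probe sets, from -0.29 to -0.0011. FGFR2 passed the threshold as lower when the arrays were weighted (-0.18), and not under the other 18 alternatives that recomputed it. FGFR1 lay between 5.32 and 5.45 in treated and between 5.23 and 5.44 in untreated T84, which overlap. Its difference was 0.0027 ± 0.08, with an interval from -0.18 to 0.19. No detection calls were used here, so whether any member was above background in any group was not tested. FGFR1 and FGFR2 in T84 lay below the lowest array median of 6.70. So did the means of FGFR1 in Caco-2 (6.00) and of FGF18 in treated T84 (6.22) and Caco-2 (5.93). Whether background limits the fold differences that involve these signals was not tested either.

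In all, 3 of the 5 members passed a limma adjusted p of 0.05 as lower in treated T84 and none as higher, beside 5.8% of all probe sets called lower and 4.37% called higher. The same 3 had groups that did not overlap, beside 17.9% of all probe sets with treated arrays wholly below. The median difference of the members was -0.45, and that of all probe sets -0.01. These counts use the comparison with which the genes were chosen. The 40 ribosomal protein genes measured had a median difference of -0.09 themselves. Centring each array on the mean, not the median, of these 40 genes moved the median of all probe sets from -0.01 to 0.14. FGFR3 was then at -1.09, FGF18 at -0.63 and FGFR4 at -0.30, still below 0, with FGFR1 at 0.15 and FGFR2 at 0.0036. In these bulk samples fewer cells that express a gene and less RNA per cell cannot be told apart. Summed linear signals of the 6 measured leukocyte markers ranged from 326 to 336 in treated and from 322 to 343 in untreated T84, and those of the 9 fibroblast and endothelial markers from 504 to 528 and from 488 to 532. The sums of the 3 measured epithelial markers did not overlap, at 10900 to 11500 in treated T84 and 12400 in all untreated arrays to 3 digits. LGALS4 was lower by treatment at -0.53, MUC13 higher at 0.40, both past the limma threshold, and MUC2 was at 0.16. The part of these shifts in the members' differences was not tested.

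**Figure D1:**
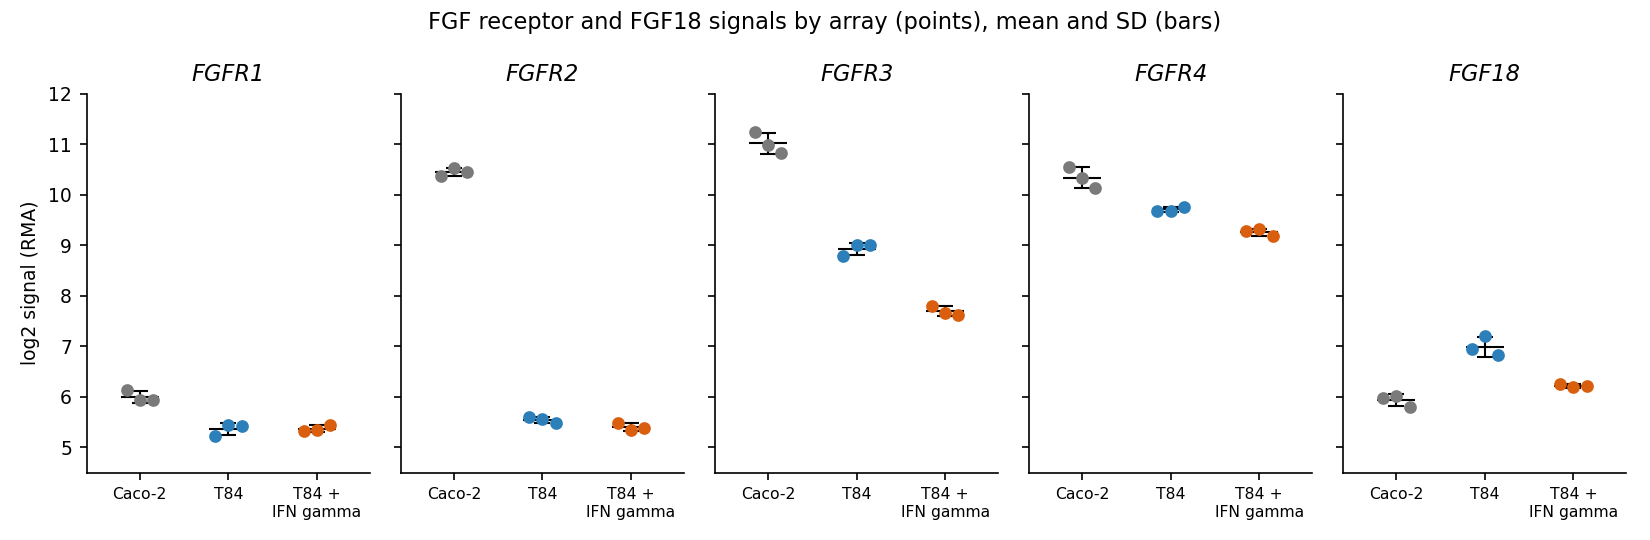
Log2 signal (RMA, vertical axis) of FGFR1, FGFR2, FGFR3, FGFR4 and FGF18 in Caco-2, untreated T84 and interferon gamma-treated T84, with a point per array, replicates 1 to 3 from left to right, and bars for the mean and SD of 3 arrays. FGFR3 and FGFR4 step down from Caco-2 through untreated to treated T84, FGFR2 is near 10.45 in Caco-2 and at most 5.60 in every T84 array, and FGF18 is highest in untreated T84.

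The lines differed at every member. Untreated T84 had lower signals than Caco-2 for all 4 receptor genes and a higher signal for FGF18. FGFR2 was 29.9-fold lower in untreated T84 (95% interval 27.1 to 33.0), FGFR3 4.24-fold lower (3.55 to 5.06), and FGFR1 and FGFR4 1.55-fold lower each (1.36 to 1.76 and 1.33 to 1.80). FGF18 was 2.08-fold higher (1.78 to 2.44).

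FGFR2, whose splice form was not analysed, gave 10.36, 10.53 and 10.45 in Caco-2 replicates 1, 2 and 3. The lowest Caco-2 array lay 4.76 log2 units above the highest untreated T84 array, and the difference was -4.90 ± 0.06 (SE, n = 3 per group), number 5 from the lowest of all probe sets. FGFR3 gave 11.24, 10.99 and 10.82 in Caco-2, where the groups were 1.82 apart at their closest and the difference was -2.08 ± 0.11. In FGFR4 the Caco-2 arrays read 10.55, 10.33 and 10.14, and the difference of -0.63 ± 0.10 came with a gap of 0.37 between the closest arrays. FGFR1 read 6.13, 5.94 and 5.93 in Caco-2, with a difference of -0.63 ± 0.08 and a gap of 0.49. Caco-2 replicate 1 was thus the highest Caco-2 array for FGFR1, FGFR3 and FGFR4 and the lowest for FGFR2. Without the 3 arrays that deviated together, the differences were -0.60 for FGFR1, -4.91 for FGFR2, -2.01 for FGFR3 and -0.55 for FGFR4.

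FGF18 ran the other way. Its Caco-2 signals were 5.98, 6.02 and 5.80, all below the untreated T84 arrays by at least 0.80, and the difference was 1.06 ± 0.10 log2 units. The line with the higher ligand signal was thus the one with the lower signals of all 4 receptors. Signals of different probe sets have no common scale, so the array does not say which receptor a line used most, only in which group each was higher.

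Against Caco-2, 4 of the 5 members were called lower and 1 higher in untreated T84, beside 24.2% and 19.5% of all probe sets. All 5 had groups that did not overlap, beside 49.6%. The median difference of the members was -0.63, against 0.02 over all probe sets. Ribosomal centring moved that overall median to 0.33 and reduced the differences of FGFR1 and FGFR4 to -0.32 each, while FGFR2 was at -4.59, FGFR3 at -1.78 and FGF18 at 1.37. The summed linear signals of the fibroblast and endothelial markers ranged from 731 to 797 in Caco-2, above the range of untreated T84, and those of the leukocyte markers from 291 to 327. Of the fibroblast and endothelial markers PDGFRA lay at 6.26 in Caco-2 and 4.63 in untreated T84, and BGN at 8.53 and 8.0. The means of PECAM1, LUM, PDGFRB and, more narrowly, VCAN were also higher in Caco-2. DCN, SELE and VCAM1 lay between 3.47 and 4.18 in both lines. The part of the fibroblast, endothelial and leukocyte markers in the differences between the lines was not tested.

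Treated T84 and Caco-2 were farther apart than untreated T84 and Caco-2 in FGFR3 and FGFR4 and closer in FGF18. These comparisons share arrays, so the values are given side by side. The FGFR3 difference from Caco-2 was -2.08 ± 0.11 in untreated and -3.32 ± 0.11 in treated T84, the latter 10.0-fold (8.37 to 11.9). FGFR4 went from -0.63 ± 0.10 to -1.08 ± 0.10, or 2.11-fold lower than Caco-2 after treatment (1.81 to 2.46). FGFR1 was at -0.63 ± 0.08 in both, and FGFR2 at -4.90 ± 0.06 and -5.04 ± 0.06.

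FGF18 in treated T84 remained 0.28 ± 0.10 log2 units above Caco-2 (1.22-fold, 1.04 to 1.43), where untreated T84 had stood at 1.06 ± 0.10. The lowest treated array was 0.17 above the highest Caco-2 array. That FGF18 difference no longer passed the threshold without any 1 of the 3 treated or 3 Caco-2 arrays, without untreated T84 replicate 1, or without the 3 arrays that deviated together, at values from 0.22 to 0.33 over the single arrays and 0.31 without the 3. In the fit of all arrays 4 of 5 members were called lower and 1 higher in treated T84 than in Caco-2, beside 26.2% and 19.4% of all probe sets. The median difference was -1.08, against 0.02 for all probe sets, a median that ribosomal centring moved to 0.48. With that centring FGFR1 did not pass (-0.17), FGFR4 was at -0.62, FGFR3 at -2.87, FGFR2 at -4.59 and FGF18 at 0.74.

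**Figure D2:**
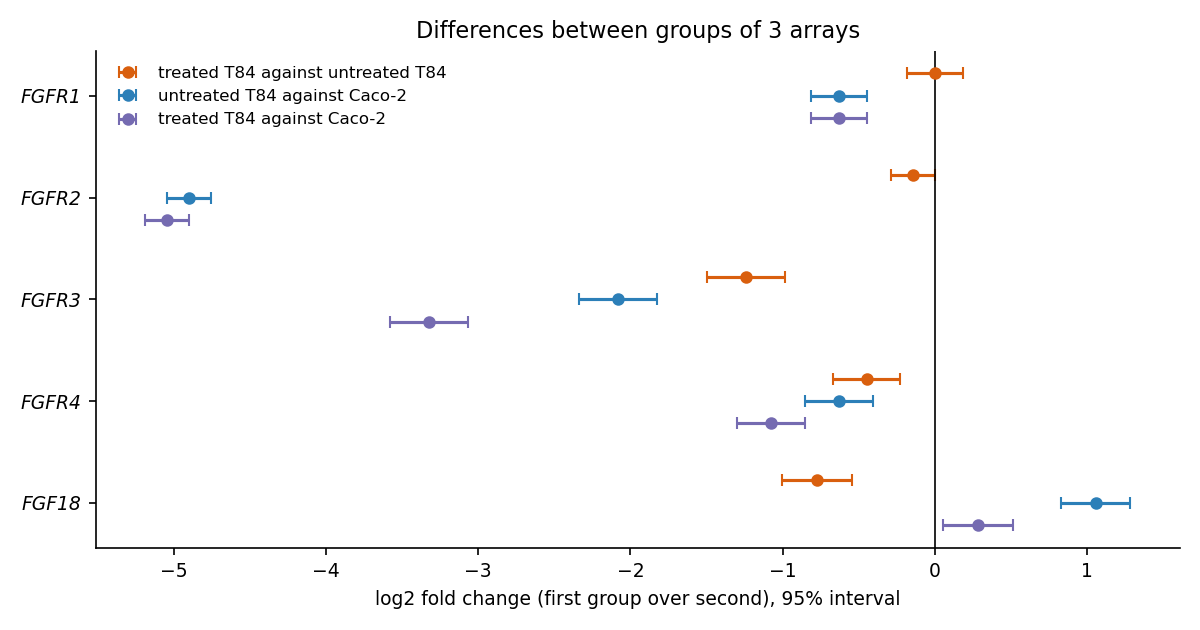
Log2 fold change (horizontal axis, first group over second) of each gene in the 3 comparisons, with 95% intervals of the fit over 9 arrays. FGFR3 lies left of 0 in all 3 comparisons, at -1.24, -2.08 and -3.32, and FGF18 lies left of 0 in treated against untreated T84 and right of it against Caco-2.

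By level, FGFR3 and FGFR4 followed the order Caco-2, untreated T84, treated T84, and FGF18 the order untreated T84, treated T84, Caco-2. In none of these 3 genes did neighbours in the order overlap. Over all probe sets, 17.9% had treated T84 wholly below untreated T84. In 49.6% untreated T84 and Caco-2 did not overlap. The share of all probe sets in such an order of 3 groups was not counted. The FGFR3 means in that order were 11.01 ± 0.21, 8.93 ± 0.12 and 7.69 ± 0.10 (SD, n = 3 each). The FGFR4 means were 10.34 ± 0.20, 9.71 ± 0.05 and 9.26 ± 0.07. The FGF18 means were 6.99 ± 0.19, 6.22 ± 0.03 and 5.93 ± 0.12. For FGFR1 (6.00 ± 0.11 in Caco-2), treated and untreated T84 did not differ beyond their spread, at 5.37 ± 0.07 and 5.37 ± 0.12. For FGFR2 (10.45 ± 0.09 in Caco-2) they were at 5.41 ± 0.07 and 5.55 ± 0.06, a gap wider than either SD between groups that met at their closest arrays. The probe sets of FGFR1 and FGFR2 carry the suffix for probes shared among transcripts, so they may read more than 1 transcript or gene. Those of FGFR3, FGFR4 and FGF18 carry none. Which splice form of a receptor was read is not analysed here.

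For each member the 3 genes of most similar pattern were those with the smallest root mean square difference over the 9 arrays, after each gene was centred on its own mean, among 922 other genes. FGF18 was followed most closely by PLA2R1, a phospholipase A2 receptor gene (0.11 log2 units), ERBB3, a receptor tyrosine kinase gene of the EGF receptor family (0.15), and GALNT12, which starts mucin-type O-glycans (0.16). These genes differed between treated and untreated T84 by -0.55, -0.82 and -0.66, beside -0.77 for FGF18. Closest to FGFR3 were BMP7, a bone morphogenetic protein gene (0.29), the ribosomal protein gene RPL28 (0.41) and GALNT11 (0.41). Their treatment differences were -0.68, -0.31 and -0.69. In log2 units these distances were larger than for the other members, but the measure is not scaled to the size of a gene's differences between groups. FGFR4 was matched by MGAT3, which adds the bisecting GlcNAc of N-glycans (0.078), the galactokinase gene GALK1 (0.093) and the perlecan gene HSPG2 (0.099). FGFR2 was matched by GPC3, a heparan sulfate proteoglycan gene (0.14), the plasma glycoprotein gene AHSG (0.14) and the growth factor gene PDGFC (0.16), each high in Caco-2, at 11.89, 11.93 and 9.46. FGFR1 had ST6GALNAC4 (0.079), PECAM1 (0.08) and SLC35B1 (0.087). Over 13 other scalings or sets of arrays at least 2 of the 3 genes stayed closest for FGFR2, FGFR3 and FGF18, but as few as 1 for FGFR4 and 0 for FGFR1.

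**Figure D3:**
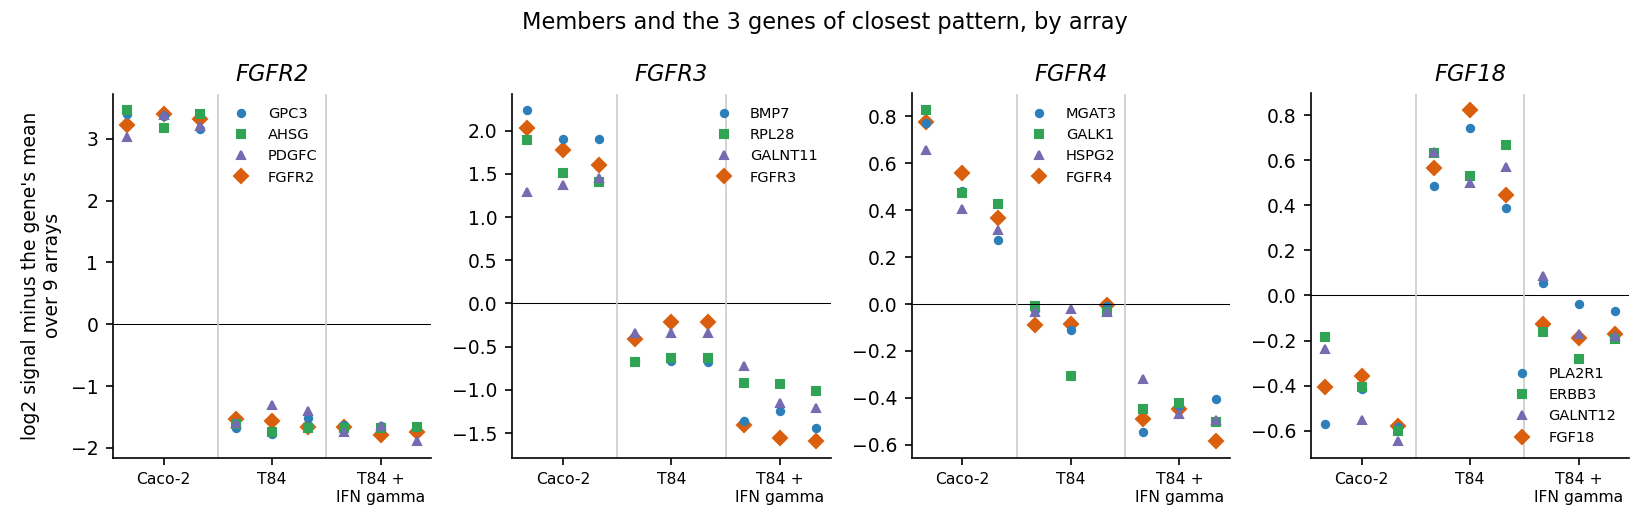
Log2 signal minus the gene's mean over 9 arrays (vertical axis) for FGFR2, FGFR3, FGFR4 and FGF18 (diamonds) and their 3 closest genes, by array, replicates 1 to 3 from left to right in each group. The vertical scales differ between panels, and the spread among genes is widest for FGFR3, whose closest gene is 0.29 log2 units away by root mean square.

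The other genes of the pathway came from lists of other FGF genes, coreceptors, heparan sulfate enzymes, proteoglycan cores and intracellular signalling genes. None of the 33 signalling and feedback genes had a named probe set here. All 21 other FGF genes did, not all of which encode receptor ligands. Between treated and untreated T84 none passed the limma threshold, beside 4.37% of all probe sets called higher and 5.8% called lower. None of the 21 had an unadjusted p under 0.05. Their differences ran from -0.07 for FGF20 to 0.17 for FGF2, with a median of -0.00, beside -0.77 for FGF18. In untreated T84 their mean signals ran from 3.21 for FGF7 to 7.10 for FGF3, with FGF13 alone higher at 9.96. Whether these signals were above background, with room to fall, was not tested, so the fall cannot be called particular to FGF18. With ribosomal centring 5 of the 21 passed as higher, where 258 of all 1259 probe sets did. The median of the 21 was then 0.14, the same as that of all probe sets.

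Between the lines, 2 of the 21 other FGF genes were higher in untreated T84 than in Caco-2 and 1 lower. Over all probe sets 19.5% were called higher and 24.2% lower. With ribosomal centring the FGF counts were 20 and 1, where 854 and 185 of all 1259 probe sets were called higher and lower. FGF13 encodes a homologous factor that stays in the cell and binds sodium channels in place of receptors, and it was higher by 2.78 ± 0.08 log2 units (9.96 ± 0.11 against 7.18 ± 0.11, SD, n = 3; limma adjusted p = 1.61e-08). FGF19, the gut hormone that acts through FGFR4, was lower, at -1.08 ± 0.11 log2 units (5.99 ± 0.11 against 7.07 ± 0.23; limma adjusted p = 7.04e-05, n = 3 per group). FGF19 and FGFR4 were thus both lower in T84. The endocrine ligand gene FGF21 was at 0.17 ± 0.05 (limma adjusted p = 0.0327, n = 3 per group), a call lost without treated replicate 2, untreated T84 replicate 2 or 3 or Caco-2 replicate 2 or 3, at adjusted p values from 0.0552 to 0.11. It was also lost with the replicate block, at an adjusted p of 0.0771, and in a fit of these 6 arrays alone, at 0.0743. In treated T84 against Caco-2 the counts were again 2 and 1, beside 19.4% and 26.2% of all probe sets. FGF13 was at 2.74 ± 0.08, FGF19 at -1.03 ± 0.11 and FGF12 at 0.23 ± 0.07 (limma adjusted p = 0.0175, n = 3 per group). The FGF12 call was lost without treated replicate 3 or Caco-2 replicate 2, at adjusted p values of 0.058 and 0.0534.

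Of 14 coreceptor, decoy and binding protein genes only NCAM1 was measured, an adhesion molecule gene whose product can bind FGF receptors. It was at 0.10 between treated and untreated T84 and did not pass. Against Caco-2 it was lower in untreated T84 (-0.92 ± 0.13; limma adjusted p = 0.000391, n = 3 per group) and in treated T84 (-0.82 ± 0.13; 0.000701).

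Heparan sulfate is the coreceptor of FGF signalling, and its 25 synthesis and modification genes were all measured. With interferon gamma 1 rose and 24 did not pass, with a median of 0.01 (5 higher with ribosomal centring). The gene that rose was HPSE, the heparanase that cuts the chains, at 0.71 ± 0.12 (7.80 ± 0.10 against 7.09 ± 0.08, SD, n = 3; limma adjusted p = 0.00745). Of 13 measured proteoglycan core genes 2 fell, SDC1, a syndecan of epithelial surfaces (-0.52 ± 0.11; limma adjusted p = 0.0187, n = 3 per group), and HSPG2, whose product perlecan holds FGFs in the basement membrane (-0.40 ± 0.09; 0.0232). With ribosomal centring 1 was higher and 1 lower. Over all probe sets 4.37% were called higher and 5.8% lower, and with that centring 258 and 52 of 1259. The SDC1 call was lost without treated replicate 1 or 2 or untreated T84 replicate 2 or 3 (adjusted p from 0.061 to 0.0782) and with the replicate block (0.0658). The HSPG2 call, from a probe set that can cross-hybridise, was lost without treated replicate 2 or 3 or any untreated T84 array (0.0759 to 0.0977) and with ribosomal centring (0.054).

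Between untreated T84 and Caco-2, 4 heparan sulfate enzyme genes were higher and 4 lower of 25 (17 and 4 with ribosomal centring). EXT1, which builds the chain, was higher by 1.58 ± 0.09, and HS3ST1, a 3-O-sulfotransferase gene, by 0.93 ± 0.11. SULF2, which removes 6-O-sulfates that many FGFs need, was lower at -1.09 ± 0.11, and NDST1, which starts chain sulfation, at -0.81 ± 0.10. The largest limma adjusted p of these 4 was 0.000187 (n = 3 per group). Of the 13 core genes 3 were higher and 7 lower (5 and 6 with ribosomal centring), with the glypican genes GPC3 at -4.96 ± 0.08, GPC4 at 3.74 ± 0.10 and GPC1 at -1.18 ± 0.12, and the syndecan gene SDC4 at -1.23 ± 0.09 (largest limma adjusted p 4.86e-05, n = 3 per group). In treated T84 against Caco-2 the counts were 5 and 5 for the enzymes (20 and 4 with ribosomal centring) and 1 and 7 for the cores (6 and 7), and HPSE was higher by 1.63 ± 0.12 (limma adjusted p = 8.32e-06, n = 3 per group). There EXT1 was at 1.46 ± 0.09, SULF2 at -1.23 ± 0.11 and HS3ST1 at 1.22 ± 0.11, and GPC3, GPC4, SDC4 and GPC1 at -4.96, 3.88, -1.17 and -1.36, all past the threshold. Across all probe sets 45.6% were called in this comparison, 43.7% in untreated T84 against Caco-2 and 10.2% in treated against untreated T84. With ribosomal centring 915 of 1259 were called higher and 174 lower in treated T84 against Caco-2. In untreated T84 against Caco-2 the counts with that centring were 854 and 185.

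**Figure D4:**
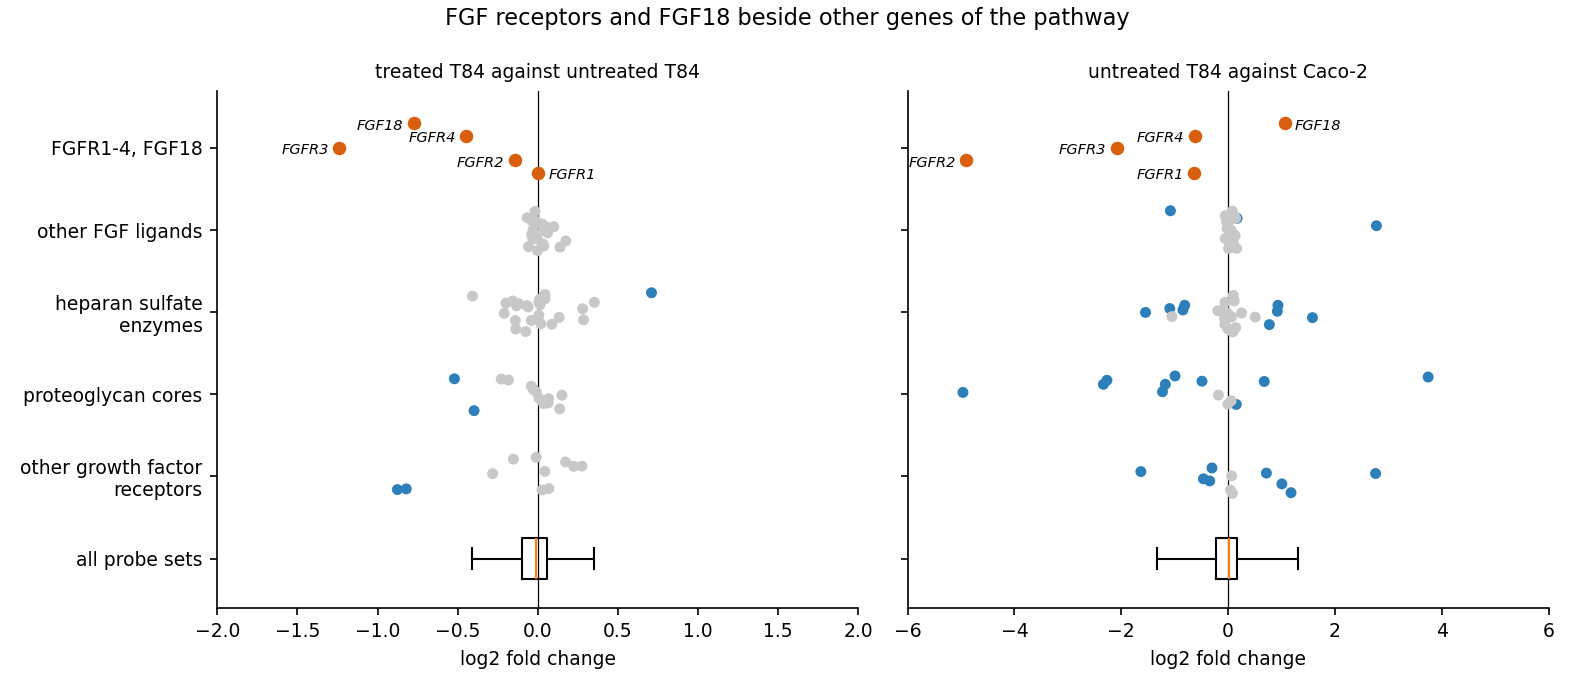
Log2 fold change (horizontal axis) in treated against untreated T84 (left) and untreated T84 against Caco-2 (right) for the 5 members (orange, whether or not they passed the threshold), genes of 4 lists (blue where the limma adjusted p was under 0.05, grey otherwise) and all 1259 probe sets (box for the quartiles and median, whiskers from the 5th to the 95th percentile). On the left the other FGF genes, in the row labelled other FGF ligands, lie between -0.07 and 0.17, while FGF18 lies at -0.77 and FGFR3 at -1.24. All of these other FGF genes but FGF13 had mean signals of at most 7.10 in untreated T84, and their room to fall was not tested.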

How the data were processed

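Trizol was used to extract RNA, of which 0.5 ug was made into biotinylated cRNA for single-colour Affymetrix-type arrays, per the labels' protocols. The deposited log2 signals were summarised and normalized by RMA, per the submitters' processing notes. Not given in the sources used here are the RMA version, the genome build and any filter. Values were used as deposited, with no filter on low values.

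Identifiers were matched without versions to a RefSeq table (GRCh38.p14), which gave 1043 of 1259 probe sets a single symbol, for 927 genes. The probe set of highest mean stood for a gene. Probe sets without a symbol entered every fit unnamed. One linear model of group over all 9 arrays was fitted with limma 3.58.1 in R 4.3.3 (6 residual and 2.12 prior degrees of freedom), and p-values were adjusted by Benjamini-Hochberg over 1259 probe sets, with 0.05 as the threshold. Errors of differences are standard errors and intervals are at 95%, both from this fit. The median standard error was 0.077 log2 units, and the number of arrays limits the precision.

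The members and lists were chosen with earlier results of these data known. Of each list up to 4 genes past the threshold were named per comparison by adjusted p, and for each member the 3 genes of closest pattern. The fit was tested on simulated data. The replicate numbers are shared between groups, but correlations of deviations of same-numbered arrays ran from -0.643 to 0.561, so they were not treated as pairs. Alternatives covered the arrays fitted, a replicate block, moderation, array weights, scaling, dim or cross-hybridising probe sets, thresholds and single arrays. After the data were seen, leaving out 3 arrays together and repeats of the pattern search were added. Figures used matplotlib 3.10.9.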

Additional observations from a re-analysis of the deposited data

How the results depend on the processing

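Of 21 alternatives 19 recomputed the members' differences and the rest changed only the threshold. No member's called difference reversed in those 19, and 269 of 285 recomputed differences moved by less than the SD between replicates. These refits reuse the arrays on which the genes were chosen, so few reversals could arise. They give no independent support for the differences. Before any centring the 40 ribosomal protein genes had median differences of -0.09 in treated against untreated T84, -0.17 in untreated T84 against Caco-2 and -0.29 in treated T84 against Caco-2. The centring used their mean, which single genes can move. RPL28, 1 of the 40, was at -2.25 in untreated T84 against Caco-2, and its part in the centring was not tested. Ribosomal centring gave the widest moves. It called 310 probe sets in treated against untreated T84 (258 higher and 52 lower, against 55 and 73 of 128), 1039 in untreated T84 against Caco-2 (854 and 185, against 245 and 305 of 550) and 1089 in treated T84 against Caco-2 (915 and 174, against 244 and 330 of 574). Calls over all gene lists, the pathway lists and the other growth factor receptors together, became 17, 62 and 68 with it, against 5, 30 and 28. Array weights gave 231 probe sets, 9 list genes and 4 members in treated against untreated T84, the added member being FGFR2 as lower. A threshold of 0.01 gave 79 probe sets and 3 list genes there. Asking for at least 2-fold left 28, 194 and 215 probe sets in the 3 comparisons, 1, 3 and 3 members (against 3, 5 and 5) and 0, 15 and 18 list genes. The count of 0 stands beside 5 list genes by adjusted p alone.

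Leaving out single arrays gave 86 to 178, 480 to 600 and 521 to 640 probe sets, 2 to 3, 5 and 4 to 5 members, and 3 to 6, 26 to 34 and 24 to 34 list genes. The list count in treated against untreated T84 was 3 when treated replicate 2, untreated T84 replicate 2 or untreated T84 replicate 3 was left out. Without the 3 arrays that deviate together, a check chosen after seeing the data, the members called were 3, 5 and 4. Same-numbered arrays of treated and untreated T84 had correlations of deviations of 0.386, -0.0237 and 0.561. The replicate block gave 109, 499 and 534 probe sets, and 3, 5 and 5 members. No member had a second named probe set among those that could be named, so that alternative was not run.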

Other observations

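Of 40 other receptor tyrosine kinase and growth factor receptor genes 11 were measured. With interferon gamma 2 fell and none rose, ERBB3, a partner of ERBB2 (-0.82 ± 0.10 log2 units, 10.89 ± 0.06 against 11.72 ± 0.07, SD, n = 3; limma adjusted p = 0.00112), and IGF1R, the type 1 insulin-like growth factor receptor (-0.88 ± 0.12; limma adjusted p = 0.00244, n = 3 per group). The other 9 did not pass, and the median of the list was 0.03. Over all probe sets 5.8% were called lower and 4.37% higher. Ribosomal centring gave 3 higher and 2 lower, beside 258 and 52 of all 1259 probe sets. Between untreated T84 and Caco-2, 4 were higher in T84 and 4 lower (7 and 1 with ribosomal centring). Over all probe sets 19.5% were called higher and 24.2% lower there, and with that centring 854 and 185 of 1259. MST1R, the receptor of macrophage stimulating protein, was higher by 2.76 ± 0.13, ERBB3 by 1.01 ± 0.10 and IGF2R, the mannose 6-phosphate receptor, by 0.72 ± 0.13, while PDGFRA was at -1.63 ± 0.24 (largest limma adjusted p 0.00235, n = 3 per group). In treated T84 against Caco-2, 3 were higher and 3 lower (7 and 2 with ribosomal centring). Over all probe sets 19.4% were called higher and 26.2% lower there, and with that centring 915 and 174 of 1259. MST1R was at 3.03 ± 0.13, IGF1R at -0.81 ± 0.12, PDGFRA at -1.59 ± 0.24 and PDGFRB at -0.62 ± 0.09 (largest limma adjusted p 0.000654, n = 3 per group). The PDGFRB call was lost with ribosomal centring, at -0.16 and an adjusted p of 0.117.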
